A study of Mus musculus with 9 samples.

Results

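The genes that turn peptide precursors into hormones were counted in 9 single cells of the mouse paraventricular nucleus. The set holds 6 genes of the 24378 in the table, chosen by name: the prohormone convertases Pcsk1 and Pcsk2, the carboxypeptidase Cpe and the amidating enzyme Pam, with Pcsk1n and Scg5, the partner proteins of the convertases. All 6 had a row of their own with a single locus. The mice were juvenile C57Bl6/N, 21 to 28 days old, with no treatment and no altered gene named in the labels. Every cell is labelled only as secretagogin-positive, with a number from 1 to 9 by which it is called here. The labels tie no cell to an animal; the 9 cells therefore form 1 sample, and no p-value was computed. Values of single cells stand by themselves, and their exact 95% intervals cover counting error only.

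Peptide hormones are made as larger precursors and are cut inside secretory granules. The convertases cut after pairs of basic residues, carboxypeptidase E then trims those residues from the new end, and peptidylglycine alpha-amidating monooxygenase, the product of Pam, turns an exposed glycine into a terminal amide. Scg5 encodes 7B2, the chaperone that PC2, the product of Pcsk2, needs to become active, and whose C-terminal peptide also inhibits it. Pcsk1n encodes proSAAS, an inhibitor of PC1/3, the product of Pcsk1. The paraventricular nucleus is a major site of this chemistry, since its neurons secrete corticotropin-releasing hormone (encoded by Crh), vasopressin, oxytocin and other peptides. Mature corticotropin-releasing hormone ends in an amide, whereas mature somatostatin (encoded by Sst) does not.

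The start regions of 4 genes are shown because Pcsk2 and Scg5 were found in the same cells, Pcsk1 was almost absent and Sst is the most abundant precursor counted here. Of the 8 genes asked for, RefSeq (GRCm38.p6) gave no region for Cpe and Crh. For the other 6 it gave regions of 300 bases, from 250 before to 50 after the start. They lie at chr13:75089607-75089906 (plus strand) for Pcsk1, chr2:143545883-143546182 (plus strand) for Pcsk2, chr2:113829042-113829341 (minus strand) for Scg5 and chr16:23890795-23891094 (minus strand) for Sst, and read 5′ to 3′ on the strand of the gene. Capitals mark TGACG and its reverse complement CGTCA, the core of the cyclic AMP response element; where both overlap they spell the whole element, TGACGTCA.
Pcsk1: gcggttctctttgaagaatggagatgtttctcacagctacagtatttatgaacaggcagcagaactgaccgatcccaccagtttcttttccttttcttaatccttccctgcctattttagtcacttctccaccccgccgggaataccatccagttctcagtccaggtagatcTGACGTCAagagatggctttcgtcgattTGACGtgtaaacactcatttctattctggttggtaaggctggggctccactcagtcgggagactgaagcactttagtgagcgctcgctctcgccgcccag
Pcsk2: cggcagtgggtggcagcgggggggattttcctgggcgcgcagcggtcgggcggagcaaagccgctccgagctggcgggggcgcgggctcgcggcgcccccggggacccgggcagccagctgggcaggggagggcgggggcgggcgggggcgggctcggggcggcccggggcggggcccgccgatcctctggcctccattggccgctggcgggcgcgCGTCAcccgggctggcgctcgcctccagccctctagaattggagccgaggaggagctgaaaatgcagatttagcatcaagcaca
Scg5: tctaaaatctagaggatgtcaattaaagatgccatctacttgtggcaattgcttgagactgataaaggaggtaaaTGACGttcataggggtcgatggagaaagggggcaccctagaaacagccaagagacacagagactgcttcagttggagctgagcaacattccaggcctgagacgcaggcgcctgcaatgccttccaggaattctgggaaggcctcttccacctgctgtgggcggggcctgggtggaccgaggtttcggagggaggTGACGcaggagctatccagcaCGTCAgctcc
Sst: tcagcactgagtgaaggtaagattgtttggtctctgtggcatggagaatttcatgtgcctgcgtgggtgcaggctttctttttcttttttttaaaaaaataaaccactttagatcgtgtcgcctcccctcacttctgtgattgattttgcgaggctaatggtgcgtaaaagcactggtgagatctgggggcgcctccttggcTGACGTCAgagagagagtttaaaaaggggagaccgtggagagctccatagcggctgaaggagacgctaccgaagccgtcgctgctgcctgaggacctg
The whole element lay 78 bases before the start in Pcsk1 and 48 bases before it in Sst. Scg5 held 3 separate copies of the core and Pcsk2 held 1. Among all 32851 start regions of the same length, 1.79% held the whole element and 20.8% held the core on either strand. The region of Pcsk1n held neither string of letters. For Pam 2 starts are listed, and the 1 region searched held neither. These matches describe the letters of the regions and nothing about binding.

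Scgn, the secretagogin gene of the label, was detected in 5 of the 9 cells with 17 molecules in all, 11 of them from cell 3, and was at 0 in cells 1, 4, 6 and 7. How the cells were picked is not stated. Depth limited what could be seen in some cells. The gene molecules had a median of 9573, with a minimum of 1021 in cell 1, then 3393 in cell 6, and a maximum of 26466 in cell 5. Levels are therefore given as molecules per 10000 gene molecules of the cell. Spike-in RNAs numbered 614 molecules in cell 9, the only cell whose column names lane 4, against 1962 to 2184 in the rest. A count of 0 allowed up to 3 molecules, which is 29.4 per 10000 in cell 1, 8.84 in cell 6 and 1.13 in cell 5. Of the cells with more than 5000 molecules, several carried markers of another cell type. Cell 4 held 2376 molecules from 3 of 5 blood markers and 119 from 7 of 7 endothelial markers. Cell 5 held 382 molecules from all 8 oligodendrocyte markers. Cell 7 held 55 molecules from 6 of 7 endothelial markers, with Pecam1 at 0. Cell 8 held 91 molecules from 5 of 7 ependymal or tanycyte markers, with Rax and Col23a1 at 0, and 29 from 4 of 7 astrocyte markers. In the other 5 cells each of these lists had at most 3 molecules, and microglial markers had 0 in every cell. The part of these other cells in the values below was not tested.

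The 6 genes gave 216 molecules in all, and they were spread very unevenly. Scg5 had 76 molecules, Cpe 67, Pcsk2 42, Pcsk1n and Pam 15 each, and Pcsk1 only 1. Scg5, Cpe, Pcsk2 and Pam were each detected in 6 of 9 cells (66.7%, interval 29.9 to 92.5%), Pcsk1n in 4 and Pcsk1 in 1. Thus 4 of the 6 genes were present in at least 5 cells, against 16.9% of the 9779 genes with at least 1 molecule. At 2 or more molecules per cell the count was still 4 of 6, against 6.35% of those genes. The 6 genes had a median of 28.5 molecules, against 3 for all detected genes, and a gene with more molecules is more readily found in many cells. Per kilobase of the longest annotated transcript, the order of the pooled levels was Scg5 at 6.89, Cpe at 3.46, Pcsk2 at 0.973, Pcsk1n at 0.749, Pam at 0.400 and Pcsk1 at 0.0217 molecules per 10000. The sources used here do not say whether the counts grow with transcript length, and only the places of Pcsk1n and Pam, which tie in molecules, rest on the length.

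**Figure D1:**
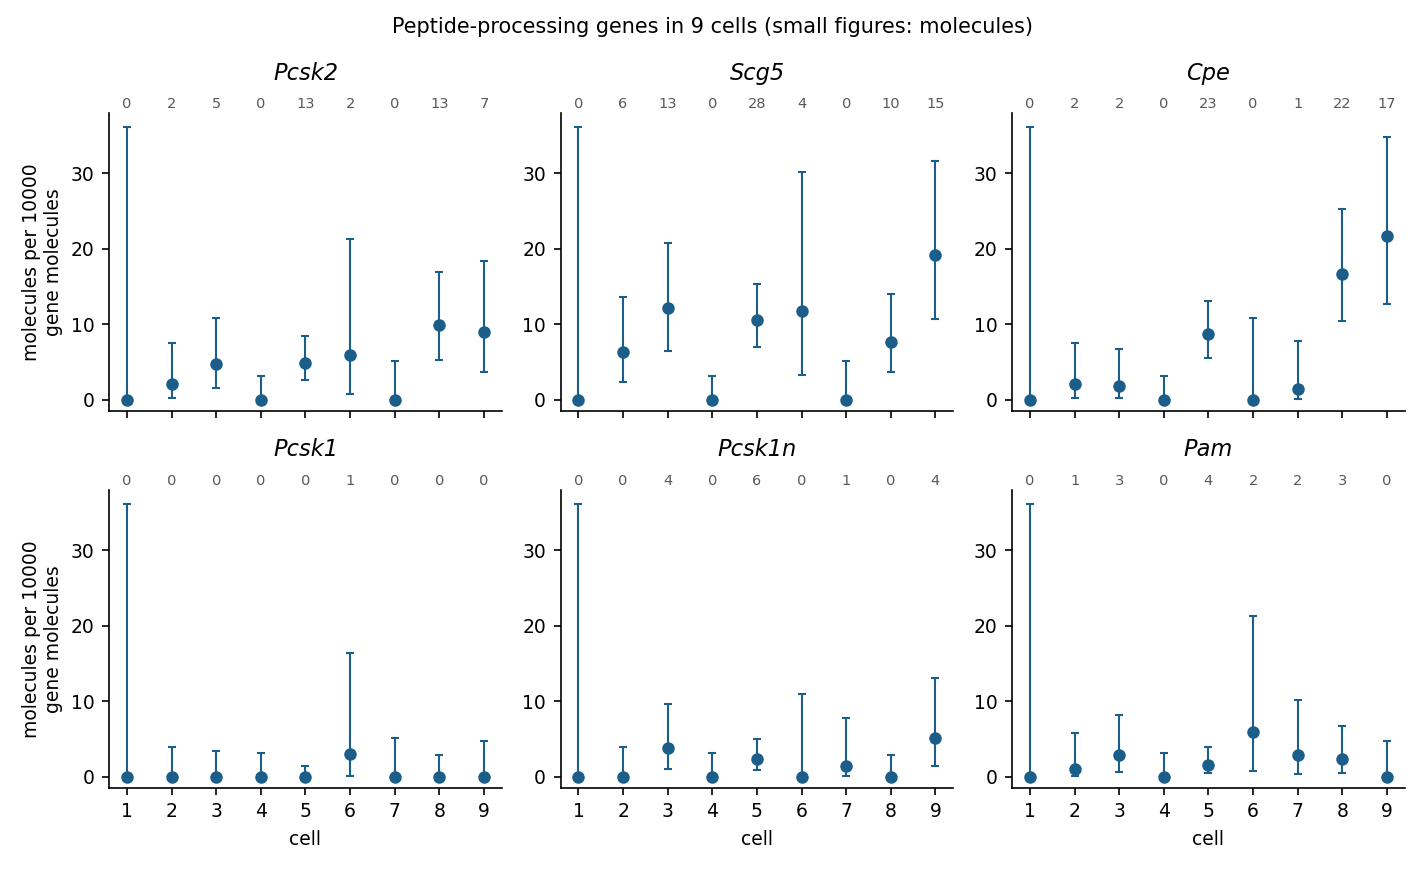
Molecules per 10000 gene molecules (y axis) of each gene in cells 1 to 9 (x axis), with exact 95% Poisson intervals and the molecules counted above each point. Cells 8 and 9 are highest for Cpe, cells 1 and 4 have none of the 6 genes, and the long bar of cell 1 comes from its 1021 molecules.

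The convertases were represented almost wholly by Pcsk2. Pcsk2 lies on chromosome 2 at 143546156 to 143816285 (plus strand, GRCm38/mm10). Cells 5 and 8 had 13 molecules each, cell 9 had 7, cell 3 had 5, cells 2 and 6 had 2 each, and cells 1, 4 and 7 had 0. Its level was highest in cell 8, at 9.87 per 10000 (interval 5.25 to 16.9), followed by cell 9 at 8.94 (interval 3.60 to 18.4), cell 6 at 5.89, cell 5 at 4.91, cell 3 at 4.66 and cell 2 at 2.09. The intervals of all 6 of these cells overlap, so the order among them is not resolved. Antisense genes overlap Pcsk2 in the annotation (Pcsk2os1 and Pcsk2os2), and without a stated strand setting their reads cannot be told apart from its own.

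Pcsk1, on chromosome 13 at 75089826 to 75134861 (plus strand), had a single molecule, in cell 6. Over all cells its level was 0.109 per 10000 (interval 0.00277 to 0.610), against 4.60 (interval 3.31 to 6.21) for Pcsk2. Pcsk2 thus made up 42 of the 43 molecules of both convertases (97.7%, interval 87.7 to 99.9%), or 97.8% per kilobase of transcript. In cell 5, the deepest, the limit for 0 molecules was 1.13 Pcsk1 molecules per 10000, and the exact interval ended at 1.39. The pooled level corresponds to less than 1 molecule in every cell. Without cell 6 the count of Pcsk1 was 0.

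Scg5, the 7B2 gene, was found wherever Pcsk2 was found and nowhere else. It lies on chromosome 2 at 113776362 to 113829121 (minus strand). Both genes were detected together in cells 2, 3, 5, 6, 8 and 9, and neither was detected in cells 1, 4 and 7. At the pooled level of the other cells, cell 1 would have given only 0.859 Scg5 and 0.475 Pcsk2 molecules, so its zeros carry little weight. Cells 4 and 7 would have given 11.5 and 6.46 Scg5 molecules, and both carry markers of other cell types, whose part was not tested. How many other genes were found in the same cells was not counted, so the overlap is a description only. Cell 5 had 28 Scg5 molecules, cell 9 had 15, cell 3 had 13, cell 8 had 10, cell 2 had 6 and cell 6 had 4. Its level per 10000 was highest in cell 9 at 19.2 (interval 10.7 to 31.6), with cell 3 at 12.1, cell 6 at 11.8, cell 5 at 10.6, cell 8 at 7.59 and cell 2 at 6.27 (interval 2.30 to 13.6). Cell 9 was 3.06-fold above cell 2 (counting interval 1.12 to 9.62) and 2.53-fold above cell 8 (1.06 to 6.29). Over cell 3 it was 1.58-fold (0.702 to 3.61), which counting error alone does not separate from equal levels.

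Transcripts of the chaperone gene outnumbered those of its convertase gene over all cells together. Scg5 made up 76 of 118 molecules of the pair, or 64.4% (interval 55.1 to 73.0%), and 87.6% per kilobase of transcript. Cell 2 had a share of 75.0%, cell 3 of 72.2%, cell 5 of 68.3%, cell 9 of 68.2% and cell 6 of 66.7%. Of these 5 cells, counting error alone separated the share from equal counts in cell 5 (interval 51.9 to 81.9%) and in no other, the low ends being 34.9% for cell 2, 46.5% for cell 3, 22.3% for cell 6 and 45.1% for cell 9. Cell 8 stood below them at 43.5% (interval 23.2 to 65.5%), with 10 Scg5 and 13 Pcsk2 molecules. That interval overlaps those of the other 5 cells. Cell 8 is also the cell with the ependymal and astrocyte markers, whose part in its share was not tested.

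Pcsk1n, the proSAAS gene, gave 15 molecules over 4 cells. It lies on chromosome X at 7919822 to 7924410 (plus strand), where Eras overlaps it on the other strand with 0 molecules in these cells. Cell 5 had 6 Pcsk1n molecules, cells 3 and 9 had 4 each, cell 7 had 1, and the other 5 cells had 0. In cell 6, the only one with Pcsk1, 0.579 Pcsk1n molecules would have been counted at the pooled level of the other 8 cells, so whether the genes go together could not be seen there. Its level per 10000 was 5.11 (interval 1.39 to 13.1) for cell 9, 3.73 for cell 3, 2.27 for cell 5 and 1.40 for cell 7. Pcsk1n transcripts were thus 15 to 1 over those of Pcsk1 (93.8%, interval 69.8 to 99.8%), a ratio that rests on the 1 Pcsk1 molecule. No cell held both genes, so the ratio compares sums over different cells. In cell 8 no Pcsk1n molecule was counted where 2.53 would have been counted at the pooled level of the other 8 cells, so its absence there is poorly resolved. Between the partner genes, Pcsk1n gave 15 of 91 molecules (16.5%, interval 9.53 to 25.7%).

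Cpe showed the widest range among the cells that held it. The gene lies on chromosome 8 at 64592542 to 64693054 (minus strand) and encodes the carboxypeptidase that acts after the convertases. Cells 5, 8 and 9 held 23, 22 and 17 of its 67 molecules, cells 2 and 3 held 2 each, cell 7 held 1, and cells 1, 4 and 6 held 0. Its level was 21.7 per 10000 in cell 9 (interval 12.7 to 34.8), 16.7 in cell 8 (interval 10.5 to 25.3) and 8.69 in cell 5 (interval 5.51 to 13.0). It was 2.09 in cell 2 (interval 0.253 to 7.55), 1.86 in cell 3 (interval 0.226 to 6.73) and 1.40 in cell 7 (interval 0.0354 to 7.78). The intervals of cells 8 and 9 lie above those of cells 2, 3 and 7. Cell 9 exceeded cell 3 by 11.7-fold (counting interval 2.77 to 104), and cell 8 exceeded it by 8.96-fold (2.20 to 78.6). Both folds rest on 2 molecules in cell 3.

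The balance of Cpe to Scg5, a comparison chosen after the values were seen, does not use the cell totals and put the cells in another order, with cell 8 first. Cpe made up 68.8% of the molecules of this pair in cell 8 (22 of 32, interval 50.0 to 83.9%), 53.1% in cell 9 (17 of 32) and 45.1% in cell 5 (23 of 51). It made up 25.0% in cell 2 (2 of 8) and 13.3% in cell 3 (2 of 15, interval 1.66 to 40.5%). The intervals of cells 8 and 3 do not overlap, while that of cell 9 (34.7 to 70.9%) overlaps both. Cell 8 carries the 91 ependymal or tanycyte and 29 astrocyte marker molecules, whose part in its share was not tested. Cell 9 held 17 Cpe molecules and 0 astrocyte marker molecules. Cell 5 held 23 Cpe molecules, 1 astrocyte marker molecule and 382 molecules of oligodendrocyte markers. The part of the oligodendrocyte content in the Cpe of cell 5 was not tested either.

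**Figure D2:**
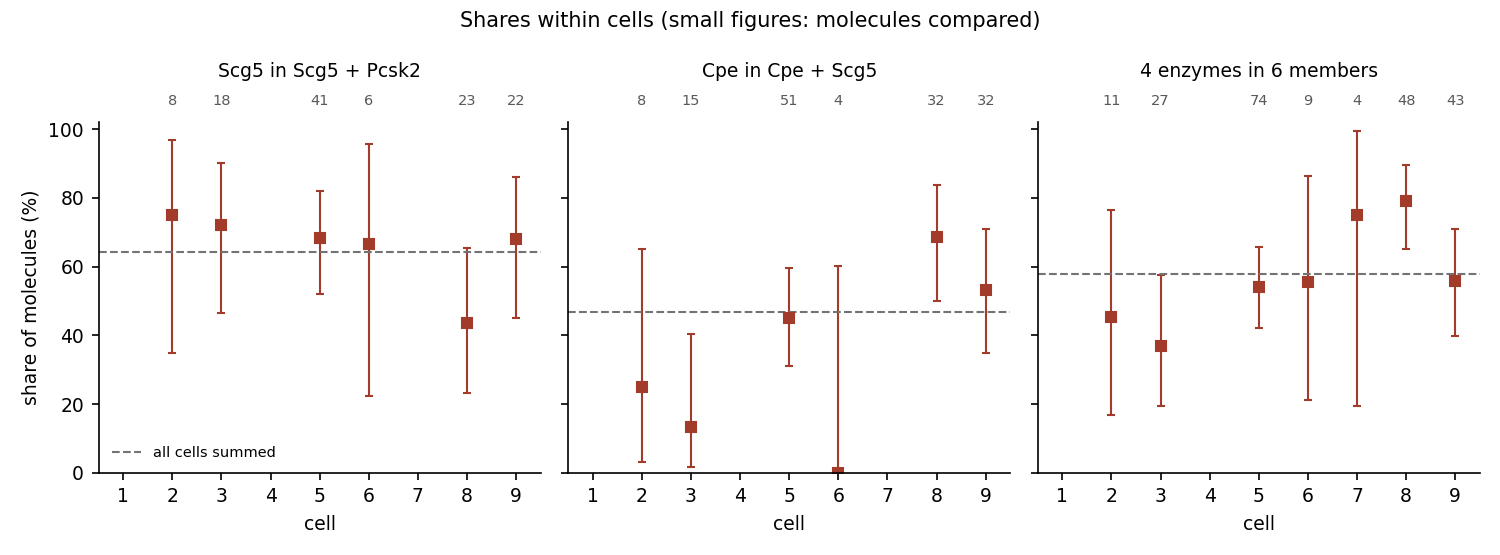
Share of molecules (y axis, percent) within each cell (x axis) of Scg5 in Scg5 plus Pcsk2, of Cpe in Cpe plus Scg5 and of the 4 enzymes in all 6 genes, with exact 95% Clopper-Pearson intervals, the molecules compared above each point, and the summed cells as a dashed line. Only cells with at least 4 molecules are drawn; cell 8 lies below the others for Scg5 and above them for Cpe, and cell 3 is among the lowest for Cpe.

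Pam, the amidating enzyme, was found at low counts, 4 molecules or fewer in every cell. It lies on chromosome 1 at 97795114 to 98095646 (minus strand), where the non-coding B230216N24Rik, with 9 molecules of its own row, overlaps it on the same strand. Cell 5 had 4 Pam molecules, cells 3 and 8 had 3 each, cells 6 and 7 had 2 each, cell 2 had 1, and cells 1, 4 and 9 had 0. Its level ran from 1.04 per 10000 in cell 2 to 5.89 in cell 6 (interval 0.714 to 21.3) among the cells with a molecule, and all their intervals overlap. Cell 9, with the highest level of Scg5 and Cpe, had no Pam molecule. At the pooled level of the other cells 1.41 would have been counted there, so depth does not resolve the difference.

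Taken as classes, the 4 enzymes gave 125 molecules and the 2 partner genes 91. The enzymes thus held 57.9% of the molecules (interval 51.0 to 64.5%), but 38.9% per kilobase of transcript, so which class leads turns on the scale. Within cells the enzyme share was 79.2% for cell 8 (interval 65.0 to 89.5%), 55.8% for cell 9, 54.1% for cell 5 and 37.0% for cell 3 (interval 19.4 to 57.6%). The intervals of cells 8 and 3 do not overlap. Without cells 4, 5, 7 and 8, which carry markers of other cell types, the share was 48.9%.

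The summed level of the 6 genes set some cells far apart. It was 54.9 per 10000 in cell 9 (43 molecules, interval 39.8 to 74.0), 36.4 in cell 8 (48 molecules), 28.0 in cell 5 (74 molecules), 26.5 in cell 6 (9 molecules) and 25.2 in cell 3 (27 molecules). It was 11.5 in cell 2 (11 molecules) and 5.59 in cell 7 (4 molecules). Cell 9 exceeded cell 5 by 1.96-fold (counting interval 1.32 to 2.90) and cell 3 by 2.18-fold (1.32 to 3.67), and cell 8 by 1.51-fold (0.976 to 2.32), which reaches equal levels. Cell 9 also led when the totals left out mitochondrially encoded genes, at 57.4, with cell 8 at 43.6, but cell 6 was then at 40.3, above cell 5 at 30.1. Spike-ins in place of the totals, scaled to the same mean, gave 133 for cell 9, whose spike-in count is itself the lowest. They also changed the order below it, with cell 5 at 64.4 above cell 8 at 41.8, and cell 6 at 8.48 below cell 2 at 9.68.

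Cells 1 and 4 held none of the 6 genes, and these zeros differ in weight. At the pooled level of the other cells, 32.7 molecules would have been counted in cell 4 and 2.44 in cell 1. The figure for cell 4 uses its whole total, which includes 2376 blood-marker molecules and 22.6% from mitochondrially encoded genes. For the sum of the genes, the limit of 3 molecules put cell 4 at 2.50 per 10000, and its exact interval ended at 3.07. Both values lie below the interval of every other cell with more than 5000 molecules except cell 7. Cell 7 had 4 molecules where 18.0 would have been counted. Apart from Meg3, the 9 other neuron markers gave cell 4 only 6 molecules, cell 7 only 15 and cell 8 only 17, against 31 for cell 3, 42 for cell 9, 51 for cell 2 and 190 for cell 5. The shallow cells 1 and 6 had 1 and 8. With Meg3 included, cell 7 had 90 neuron-marker molecules (1.26% of its total, 75 of them Meg3). Cell 2 then had 131 (1.37%), cell 3 had 100 (0.932%), cell 5 had 231 (0.873%) and cell 9 had 56 (0.715%). Cell 6 had 41 (1.21%), cell 4 had 34 (0.283%), cell 8 had 29 (0.220%) and cell 1 had 62 (6.07%, 61 of them Meg3). The low place of cell 7 thus rests on leaving out Meg3. Neuron markers and processing genes did not run in parallel throughout. Per 10000, cell 4 had a neuron-marker level of 4.99, cell 8 of 12.9, cell 7 of 20.9, cell 6 of 23.6 and cell 3 of 28.9, while the summed level of the 6 genes was higher in cell 8 than in cells 3, 6 and 7.

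**Figure D3:**
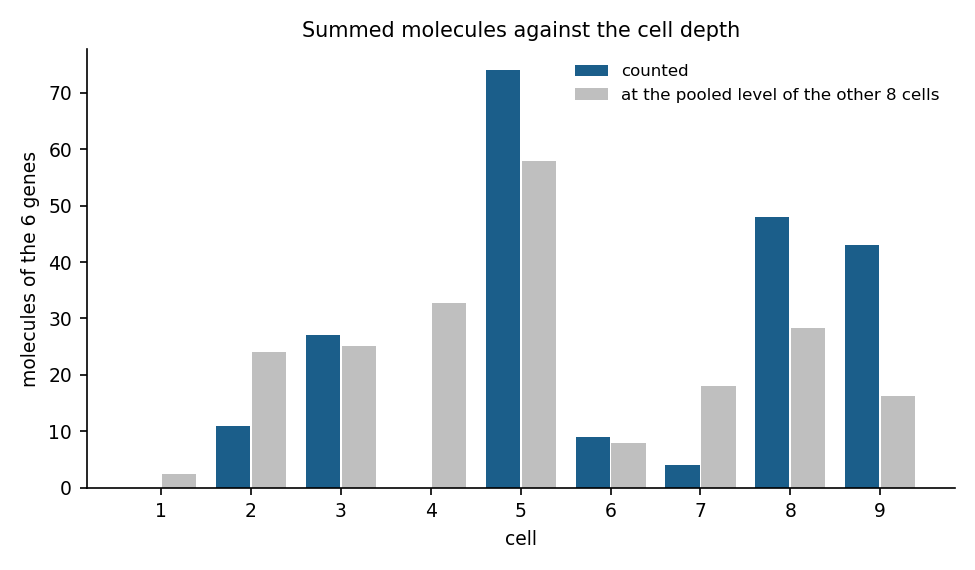
Molecules of the 6 genes (y axis) counted in each cell (x axis, blue bars) beside the number that the pooled level of the other 8 cells would give at that cell's depth (grey bars). Cell 4 has 0 beside 32.7 and cell 9 has 43 beside 16.2, while cell 3 has 27 beside 25.1.

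The members were next set beside Crh and Sst in each cell. In order of Crh level, cell 9 held 19 Crh molecules (24.3 per 10000), cell 5 held 13 (4.91), and cells 3 and 8 held 2 each (1.86 and 1.52), with 0 in the other 5 cells. All 4 of these cells held Pcsk2, Scg5 and Cpe, but so did cell 2, which had no Crh molecule and an upper limit of 3.13 per 10000. Cell 9, first in Crh, was also first in Scg5 and Cpe and in the sum of the 6 genes. Cell 8, with 2 Crh molecules, came next for Cpe and had the highest Pcsk2 level, so the ranks do not run in parallel throughout.

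The cells with the most Sst did not share 1 balance of the processing genes. Cell 3 held 111 Sst molecules (103 per 10000), cell 7 held 29 (40.5), cell 8 held 5 (3.79), cell 4 held 2 and cell 5 held 1. Cell 3 had 13 Scg5, 5 Pcsk2, 4 Pcsk1n and 3 Pam molecules but only 2 of Cpe, and cell 7 had 2 of Pam, 1 each of Cpe and Pcsk1n, and 0 of Scg5 and Pcsk2. In cell 7, 6.46 Scg5, 5.61 Cpe and 3.57 Pcsk2 molecules would have been counted at the pooled levels of the other cells. Low Cpe was not particular to cells with Sst, since cell 2, with 0 Sst molecules, had a Cpe level of 2.09 per 10000 beside 1.86 in cell 3. The cells with the most precursor of this kind were therefore not those with the most processing transcripts. Cell 7 carries endothelial markers, whose part in this was not tested.

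The load of precursor on the processing genes, counted in molecules, spanned a wide range. Sst exceeded the 6 genes together by 4.11 to 1 in cell 3 (111 against 27 molecules, a share of 80.4%, interval 72.8 to 86.7%) and by 7.25 to 1 in cell 7 (29 against 4, a share of 87.9%, interval 71.8 to 96.6%). Crh was 19 against 43 in cell 9, a share of 30.6% (interval 19.6 to 43.7%), and 13 against 74 in cell 5, a share of 14.9% (interval 8.20 to 24.2%). The intervals for Sst in cells 3 and 7 lie above those for Crh in cells 5 and 9. These cells were taken because they hold the most of each precursor, so no difference between the precursors follows. The Sst share was 9.43% in cell 8 and 1.33% in cell 5. Sst and Crh transcripts are shorter, 0.721 and 1.32 kilobases, than those of the enzymes, and these ratios were not divided by length.

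All listed peptide precursors were also counted together, without Oxt from the 38. In cells 7 and 3 this count is nearly the Sst count itself, 29 of 29 and 111 of 121 molecules, so these cells do not add to the comparison above. The precursors per processing molecule were 7.25 for cell 7, 4.48 for cell 3, 1.36 for cell 2, 0.698 for cell 9, 0.354 for cell 8, 0.284 for cell 5 and 0.111 for cell 6. In cell 2 the precursor molecules were mainly the 11 of Tac1, which encodes substance P, and in cell 3 Cartpt added 8. Oxt was set aside because it had 3 to 8 molecules in 8 of 9 cells, whatever their depth. The processing genes did not share that flat pattern, since cells 1 and 4 held 8 and 5 Oxt molecules and none of the 6 genes.

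**Figure D4:**
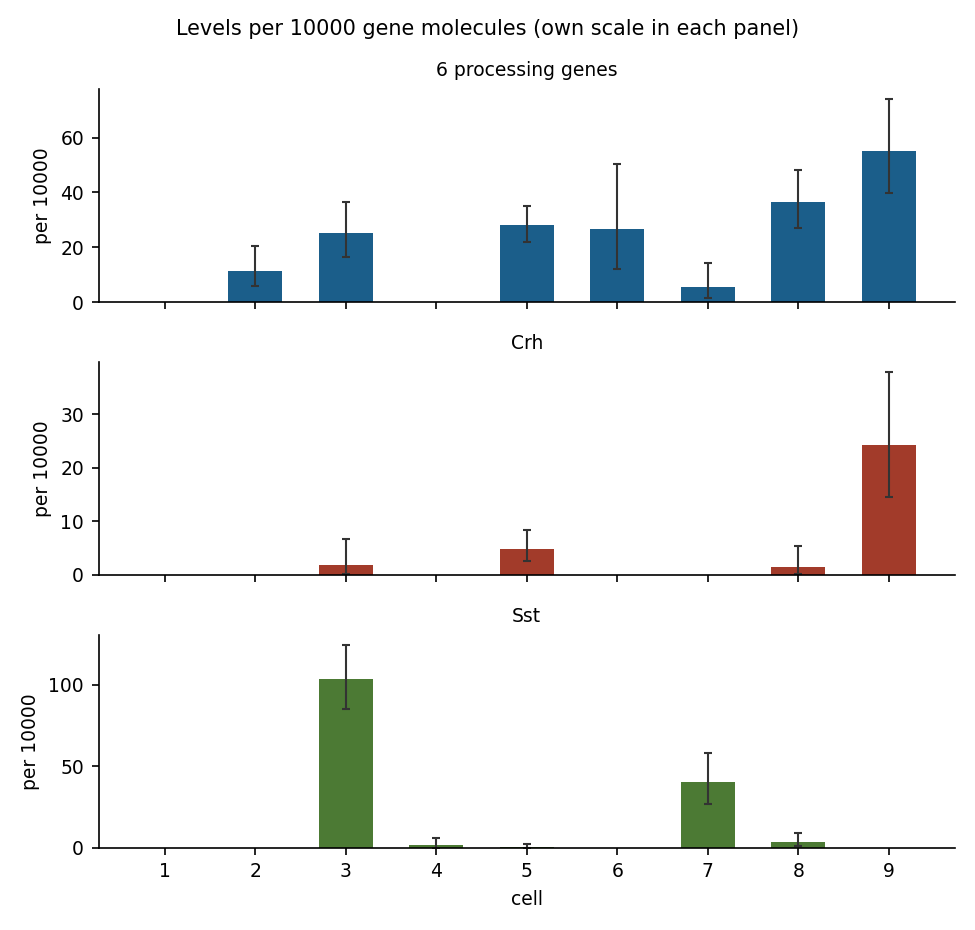
Level per 10000 gene molecules (y axes, each on its own scale) of the 6 processing genes summed, of Crh and of Sst in cells 1 to 9 (x axis), as bars with exact 95% Poisson intervals where a molecule was counted. Cell 9 is highest for the processing genes at 54.9 and for Crh at 24.3, and cell 3 is highest for Sst at 103.

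The other enzymes of the pathway mostly had few molecules. Of 37 further genes in 3 lists, 13 had no molecule, 20 were found in 1 to 4 cells and 4 in 5 or more, with 157 molecules in all. The 4 genes are 16.7% of the 24 detected, close to the 16.9% of all detected genes. Over all 37, the 13 with no molecule included, the median was 1 molecule, against 28.5 for the 6 genes. It cannot be set against the median of 3 molecules over all genes, which counts detected genes only. Among the 7 other convertases of the family, none was in at least 5 cells, and Furin and Pcsk5 had no molecule. Mbtps1, the site-1 protease, had 8 molecules in 4 cells, Pcsk6 and Pcsk7 had 2 each and Pcsk4 had 1. The 42 molecules of Pcsk2 thus stood against at most 8 of any other convertase of the family.

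Among 15 other maturation enzymes, the cathepsins led. Ctsl, which encodes cathepsin L, a lysosomal protease also described in secretory granules, had 35 molecules over 6 cells, 16 of them from cell 5. Ctsb, the cathepsin B gene, had 28 in 6 cells, with 12 in cell 5 and 10 in cell 9. Cpd, a carboxypeptidase of the trans-Golgi network, had 12 molecules, of which 9 lay in cell 8, and cell 9, where Cpe was highest, had none. Qpct, which forms the pyroglutamate end of some peptides, had 7 molecules over cells 3, 5 and 9. Prcp and the sulfotransferase gene Tpst1 had 5 and 4 molecules in all. Of the 15, 6 had no molecule, 7 were in 1 to 4 cells and 2 in 5 or more. These 2 are 22.2% of the 9 detected, against 16.9% of all detected genes.

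Enzymes that degrade peptides gave 47 molecules, against 97 for the other maturation enzymes and 13 for the other convertases. Ece1, an endothelin-converting enzyme, had 17 molecules. Cells 4, 5 and 7 had 4 each, cell 3 had 3, and cells 2 and 9 had 1 each. Of these, cells 4 and 7 carry endothelial markers, cell 5 had 3 molecules of them, and cells 2, 3 and 9 had 0. The part of endothelial content in Ece1 was not tested. The aminopeptidase gene Npepps had 9 molecules in 5 cells, among them 2 in cell 1, and Tpp2, Nln and Ece2 had 6, 4 and 3 in all. Mme, the neprilysin gene, and Dpp4 had none. Of the 15 genes, 4 had no molecule, 9 were in 1 to 4 cells and 2 in 5 or more. These 2 are 18.2% of the 11 detected, close to the 16.9% of all detected genes.

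**Figure D5:**
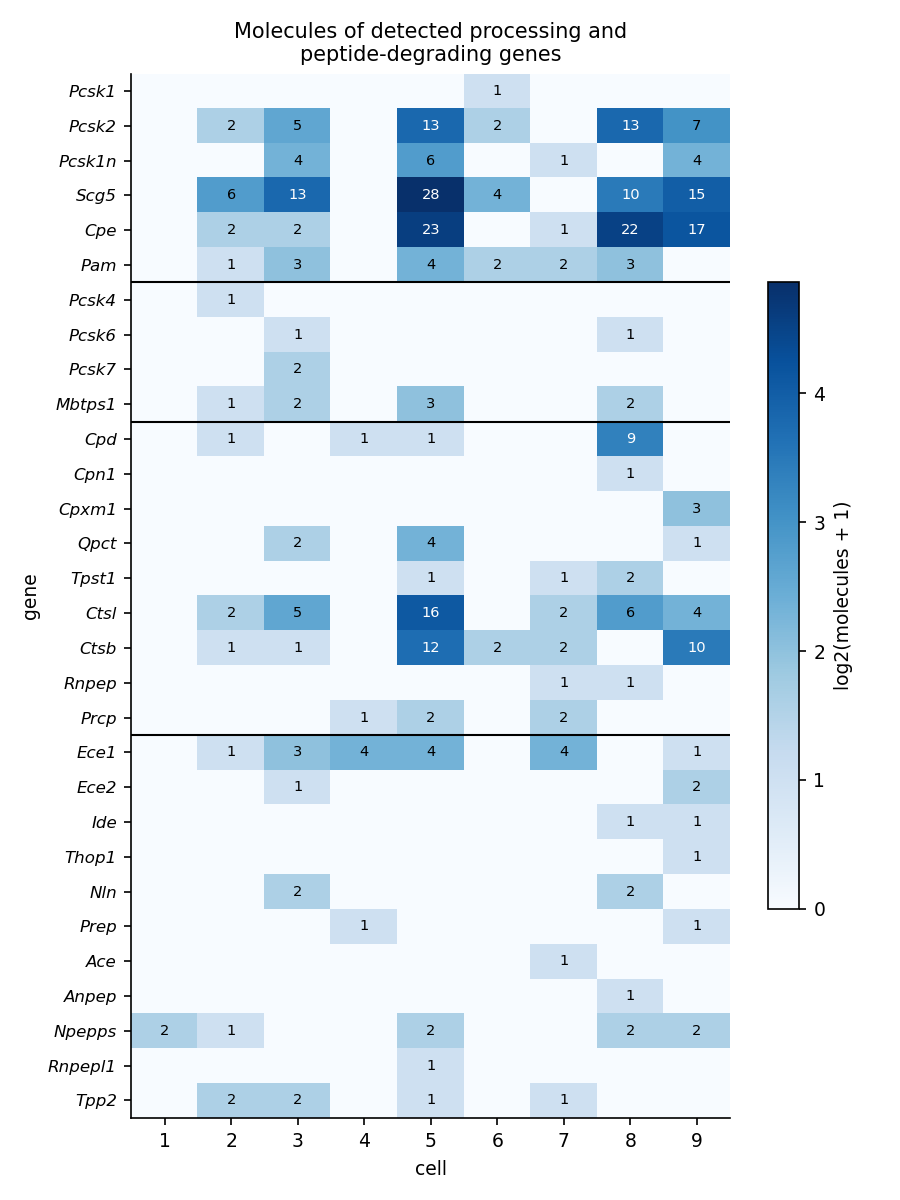
Molecules in cells 1 to 9 (x axis) of the 6 processing genes and of the detected genes of 3 further lists (y axis), separated by lines into members, other convertases, other maturation enzymes and peptide-degrading enzymes, with colour as log2(molecules + 1) and the count in each box. Scg5, Cpe and Pcsk2 fill the most boxes with high counts, and Pcsk1 fills 1.

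Granule proteins gave 568 molecules from 14 genes, with 264 from Resp18, a granule protein of neuroendocrine cells, and 105 from Scg2. The median of these genes was 18 molecules, below the 28.5 of the 6 processing genes, so the larger sum rests on few genes. Of the 14, 9 were in at least 5 cells (69.2% of the 13 detected, against 16.9% of all detected genes). At 2 or more molecules per cell, 3 of the 13 were, against 6.35% of all detected genes. Resp18 was found in 6 cells, and in cell 7, where Scg5 and Pcsk2 had 0 molecules, it had 2. Ptprn was detected in all 9 cells, among them cells 1 and 4 with none of the 6 processing genes.

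The pattern of the summed 6 genes over the cells was compared with that of 435 genes that had at least 30 molecules and were detected in at least 5 cells. The measure was the Pearson correlation of log2(level + 1) over the 9 cells, and it is given as a description. The cells differ in library depth and cell content, and all genes compared share these differences. The highest values belonged to Calm3, a calmodulin gene, at 0.961, Stmn1 at 0.940, Impact at 0.939, Ndufa4, a respiratory chain gene, at 0.934 and Ergic3 at 0.899. The median over the 435 genes was 0.453. By ranks the values of these 5 genes were 0.728, 0.664, 0.664, 0.912 and 0.766. Cell 5 had 21 Calm3 molecules, cell 9 had 16, cell 8 had 11, cell 3 had 10, cell 2 had 8, cells 6 and 7 had 3 each, cell 4 had 1 and cell 1 had 0. The choice of these 5 genes was not stable, since leaving out 1 cell kept between 1 and 5 of them and using ranks kept 1. Without cell 6 only 1 was kept, without cell 2 or cell 4 there were 2, and without cell 3, 5, 8 or 9 there were 3. Of the granule genes among the 435, Scg2 and Resp18 reached 0.73 each, at ranks 55 and 56, whereas Ptprn was at 0.026, rank 370. Sst was at 0.0686, rank 358.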

How the data were processed

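Single cells from papain-dissociated tissue were processed on a Fluidigm C1 instrument, and spike-in RNAs were added at lysis, per the labels' protocols. The submitters' processing notes name mm10 and Bowtie. The deposited table, as the authors made it, holds whole-number counts for 24378 gene rows and 92 spike-in rows, called molecules here. How reads were collapsed, and the strand setting, are not given in the sources used here. Columns were assigned to cells by the cell number in their names, and 0 columns were left unused.

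Each level divides the count by the sum over all gene rows of that cell, leaving out spike-ins, times 10000. Intervals are 95% exact Poisson intervals for counts and Clopper-Pearson intervals for shares, and a fold between cells has the exact interval of the share of its molecules. A count of 0 was given a limit of 3 molecules. A marker split over several loci took its largest row in each cell. Positions and transcript lengths come from GENCODE M21 (GRCm38/mm10), and start regions from RefSeq. No animal is named, so no test between groups was made and no p-value computed; Dixon's criterion was used only to pick single cells that stand apart. Doublets were not called. The search for similar genes was run on simulated counts. In these, planted genes had the members' own cell pattern and all other genes had 1 level in every cell. That run does not show how stable the 5 named genes are in the real cells. The members, lists, markers and alternatives were chosen with earlier results of these data known. Besides the members, Crh and Sst, the rule named up to 6 genes with the most molecules from each list and the 5 genes with the most similar pattern; other genes, and the comparison of Cpe with Scg5, were chosen after their values were seen. Some genes that the rule named are left out of the text. Scripts ran in Python 3.11.15 (scipy 1.17.1, numpy 2.4.6, pandas 2.3.3, and for figures matplotlib 3.10.9).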

Additional observations from a re-analysis of the deposited data

Results flagged for a closer look

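Of 12 measures compared over cells, 5 had 1 cell whose gap to its nearest neighbour, divided by the range, passed Dixon's 95% critical value. Chance alone flags about 1 in 20 such groups, and many of these values are 0 in most cells. Pcsk1 stood apart in cell 6 at 2.95 per 10000 by construction, since any gene with a single molecule would, and its place among the 5 says nothing. Pam stood apart in the same cell at 5.89 per 10000, from 2 molecules at a depth of 3393, with 2.80 in the next cell. Crh stood apart in cell 9 at 24.3 per 10000 and Sst in cell 3 at 103 per 10000. The share of Scg5 in Scg5 plus Pcsk2 stood apart in cell 8, at 43.5% beside 66.7% in the nearest of the other 5 cells with at least 5 molecules of the pair.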

How the results depend on the processing

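The count of 4 genes present in most cells was 4 under every alternative run except without the 2 cells under 5000 molecules. There it was 5 of 6, with 4 of 7 cells required, and the share of all genes at that requirement was not counted. The share of Scg5 in Scg5 plus Pcsk2 was 62.3% to 69.5% when 1 cell was left out, and 87.6% per kilobase. The share of the 4 enzymes was 51.8% to 60.8% when 1 cell was left out, but turned to 48.9% without cells 4, 5, 7 and 8 and to 38.9% per kilobase; leaving out cell 8 gave the lowest value. The shares of Pcsk2 in both convertases and of Pcsk1n in Pcsk1n plus Pcsk1 were 96.7% to 100% and 90% to 100% when 1 cell was left out. Both were 100% without the 2 cells under 5000 molecules and as a mean within cells with at least 5 molecules, by construction, since the 1 Pcsk1 molecule lies in cell 6.

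Of the 37 other enzyme genes, the count of 4 was 3 to 4 when 1 cell was left out. It was 7 without the 2 cells under 5000 molecules, where 4 of 7 cells were required. The share of all genes at that requirement was not counted, so the rise cannot be told from the changed cut. At 2 or more molecules the count was 1, from 24 detected genes, against 6.35% of all detected genes. Of the 5 most similar genes, 1 to 5 were kept when 1 cell was left out, 2 without cells 4, 5, 7 and 8, 1 without the 2 shallow cells and 1 by Spearman correlation; the cause was not tested. Of 29 levels above 0, totals without mitochondrial genes kept all 29 within their counting interval, as did totals without ribosomal protein and globin genes as well, and spike-ins moved 7, all in cells 5 and 9. After thinning 7 cells to 7160 molecules, Pcsk2, Scg5, Cpe and Pam would be found in 4.92, 5.00, 5.83 and 4.33 cells, against 5, 5, 6 and 5 unthinned. Depth limits all statements on Pcsk1, Pcsk1n and Pam. No paired analysis was possible because the study has 1 group.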
